A study of Mus musculus with 6 samples.

Results

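The genes described here encode the integrin and laminin chains of dystrophic mouse muscle, 37 of the 19752 genes measured. They were chosen by name: every integrin alpha or beta chain and every laminin alpha, beta or gamma chain whose symbol a probe set carried alone. A probe set is the group of array probes that reports 1 gene. The 37 genes were represented by 38 probe sets, and the brighter of the 2 was used for Itgad. The chains were divided into 9 leukocyte integrins, 18 integrins that mainly bind matrix and 10 laminin chains.

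Integrins are surface receptors made of an alpha and a beta chain that couple the matrix or other cells to the cytoskeleton. In muscle fibres the alpha7 beta1 pair binds laminin of the surrounding basement membrane, in parallel with the dystrophin complex. Laminins are trimers of an alpha, a beta and a gamma chain, and the alpha2 chain is the main one around muscle fibres. Leukocytes use other integrins, chiefly the beta2 family and the alpha4 chains, to attach to vessel walls and to other cells.

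All samples were skeletal muscle from dystrophin-deficient mdx mice, labelled male. The control group of 3 samples was given rat IgG. The other group of 3 was given the PC61 clone of anti-CD25, which binds the alpha chain of the interleukin-2 receptor, abundant on regulatory T cells. Both antibodies were injected into the peritoneum 2 times, on days 17 and 20 of age, and the design text gives a dose of 100 mg, printed here as written. Muscles were taken 7 days after the second dose by the design text, hence on day 27, but the mice were 6 weeks old by the labels, hence at day 42. No wild-type mice and no untreated mdx mice are analysed here. The question, from the title of the series, was what depletion of regulatory T cells does to dystrophic muscle. Whether the 3 samples of a group were separate animals is not stated in the labels, and the p-values cover only the spread between samples, part of which may be technical.

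Each sample was measured on 1 array with a median intensity of 149.8 to 151.5, and the precision is limited by the small number of arrays. Values are given in the order of arrays 1, 2 and 3 of a group. The lower quartile of log2 intensity was 5.85, 5.85 and 5.68 with rat IgG and 5.70, 5.68 and 5.82 with anti-CD25. All 10 muscle fibre markers examined, among them Ckm, Acta1 and Ttn, lay at or above the 99.6 percentile of mean intensity. None of the cell type markers examined was listed at 0, which does not by itself show that they were detected. The correlation across genes (genes being no independent replicates) was 0.991 between rat IgG 3 and each array of its own group and up to 0.995 between rat IgG 3 and anti-CD25 arrays. Xist, the RNA of the inactive X chromosome, was at 11.77 to 11.94 log2 units on arrays 1 and 2 of each group and at 5.48 and 5.49 on array 3 of each group, where Y-linked genes were high, although every mouse is labelled male. Differences are therefore also given within the 4 high-Xist arrays and between the 2 low-Xist arrays. The lower quartile was lower with anti-CD25 within the high-Xist arrays and higher with it between the low-Xist arrays. The 30% dimmest genes had mean differences, anti-CD25 minus rat IgG, of -0.16 and 0.072 there. Xist class and this split in the lower quartile cannot be told apart. Bulk muscle cannot tell more cells of a type from more RNA per cell.

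Promoter sequence is shown for Itgam and Itgax, the beta2 family alpha chains with the largest differences below, and for Lamb2, the laminin chain with the largest one, as a contrast. The Itgam promoter is a known target of PU.1, a transcription factor of myeloid cells whose binding sites centre on GGAA. Capitals mark GAGGAA, or TTCCTC where it lies on the other strand. The sequences are from RefSeq on GRCm38.p6, plus strand, 5′ to 3′, and stop at the base before the first annotated transcript start.
Itgam, chr7:128062390-128062639: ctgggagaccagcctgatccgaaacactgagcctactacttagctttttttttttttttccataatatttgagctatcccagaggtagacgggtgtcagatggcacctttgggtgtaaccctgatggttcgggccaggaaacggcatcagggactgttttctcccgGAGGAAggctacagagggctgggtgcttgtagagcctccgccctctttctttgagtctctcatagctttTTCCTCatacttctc
Itgax, chr7:128129300-128129525: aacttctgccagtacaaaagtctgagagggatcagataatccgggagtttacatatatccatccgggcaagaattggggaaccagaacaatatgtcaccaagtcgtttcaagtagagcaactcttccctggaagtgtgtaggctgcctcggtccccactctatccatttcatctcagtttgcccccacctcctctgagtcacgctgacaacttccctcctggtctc
Lamb2, chr9:108479612-108479846: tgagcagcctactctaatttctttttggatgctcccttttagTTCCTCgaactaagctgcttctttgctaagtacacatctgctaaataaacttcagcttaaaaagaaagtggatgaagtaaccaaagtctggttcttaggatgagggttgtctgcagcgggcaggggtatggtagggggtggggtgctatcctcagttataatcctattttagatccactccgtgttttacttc

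The Itgam window held 2 matches, 1 of them ending 9 bases before the transcript start, the Itgax window held 0 and the Lamb2 window held 1. In the first 250 bases of each promoter entry, GAGGAA on either strand was found in 23.3% of all 32851 RefSeq mouse promoters. It was found in 2 of 5 promoters of leukocyte integrins, 7 of 16 of matrix-binding integrins and 5 of 6 of laminin chains, where a gene can have more than 1 promoter and 24 of the 37 genes had one in the table. Matches were thus found in all 3 sets of chains, and a match is only a run of letters. For Itgax and Lamb2, whose printed sequences hold 226 and 235 bases, the 250 bases counted run past the first annotated transcript start. Itgam, Itgax and Itgad follow one another along the chromosome with 0 protein-coding genes between neighbours, and so do Itga2 and Itga1, in the GRCm38.p6 gene table.

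No integrin or laminin gene passed the test. In limma's test of anti-CD25 against rat IgG, 0 of the 37 genes had an adjusted p under 0.05 (Benjamini-Hochberg over all genes), as did 0% of all 19752 genes, and the smallest adjusted p was 0.7496. At an unadjusted p under 0.05 there was 1 gene of the 37, Itga6, or 2.70%, against 6.28% of all genes. It was higher with anti-CD25, as were 2.3% of all genes at that p, and 0 of the 37 were lower, against 3.98%. The groups did not overlap in 6 of the 37 genes, or 16.2%, against 11.7% of all genes. Of these, 2 were higher with anti-CD25, Itga6 and Itgav (4.28% of all genes), and 4 lower, Itga7, Itga11, Itgb6 and Lamb2 (7.46% of all genes). Differences are anti-CD25 minus rat IgG on the log2 scale throughout. They were positive in 19 genes and negative in 18, from -0.26 for Itga11 to 0.33 for Itgax, with a median of 0.0010 against -0.026 over all genes. The moderated 95% interval reached a median of 0.23 to each side over the 37 genes, and only the interval of Itga6 left out 0.

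**Figure D1:**
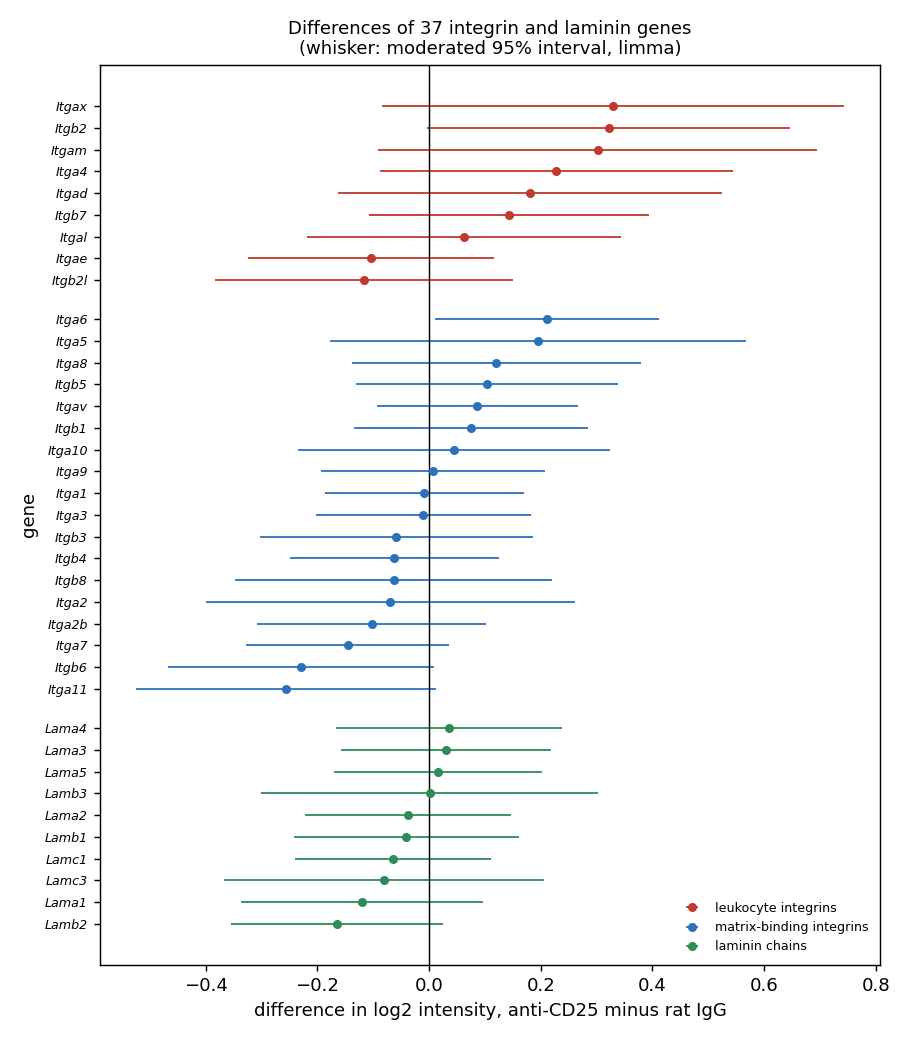
The difference in log2 intensity, anti-CD25 minus rat IgG, is plotted for the 37 integrin and laminin genes in 3 groups, with points for the estimates and whiskers for limma's moderated 95% intervals. The whiskers of 36 genes cross 0, and 7 of the 9 leukocyte integrins lie to the right of 0.

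Leukocyte integrins held the 4 largest positive differences. Of all genes, 41.1% were higher in mean with anti-CD25, and 23.4% of the 30% dimmest, which held only Itgae of the 9. Of the 9 leukocyte integrins, 7 were higher and 2 lower, with a median difference of 0.18. None passed the test, and none separated the groups.

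Itgb2 encodes CD18, the beta chain shared by the integrins of the CD11 family. It measured 8.82, 8.72 and 9.22 log2 units with rat IgG and 9.32, 9.05 and 9.36 with anti-CD25. All 3 anti-CD25 arrays lay above rat IgG 1 and 2, and rat IgG 3 lay within their range. The means were 8.92 ± 0.27 (SD, n = 3) and 9.24 ± 0.17 (SD, n = 3), a difference of 0.32 (SE 0.14), or 1.25-fold, with limma adjusted p = 0.7496 and unadjusted p = 0.0515. It was 0.41 within the high-Xist arrays, 0.14 between the low-Xist arrays and 0.47 without rat IgG 3.

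Itgam encodes CD11b, the alpha chain that pairs with CD18 on monocytes, macrophages and neutrophils. It measured 8.76, 8.87 and 9.50 on the rat IgG arrays and 9.39, 9.25 and 9.40 on the anti-CD25 arrays. The highest of all 6 values was that of rat IgG 3, and the other rat IgG arrays lay below every anti-CD25 array. The difference was 0.30 (SE 0.17; 95% interval -0.090 to 0.695). It was 0.50 within the high-Xist arrays, -0.096 between the low-Xist arrays, 0.53 without rat IgG 3 and 0.16 without rat IgG 1.

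Itgax encodes CD11c, the alpha chain of dendritic cells and many tissue macrophages. It measured 7.35, 7.00 and 7.40 with rat IgG and 7.99, 7.28 and 7.46 with anti-CD25. Only anti-CD25 1 stood well above the rat IgG range. The difference of 0.33 (SE 0.18) became 0.12 without anti-CD25 1. It was 0.47 within the high-Xist arrays and 0.058 between the low-Xist arrays.

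Itga4 encodes the alpha4 chain, which binds VCAM-1 and fibronectin and is carried by lymphocytes, monocytes and eosinophils. It measured 9.37, 9.08 and 9.32 with rat IgG and 9.75, 9.22 and 9.49 with anti-CD25. Anti-CD25 1 and 3 lay above every rat IgG array and anti-CD25 2 below 2 of them. The difference was 0.23 (SE 0.14), 0.26 within the high-Xist arrays and 0.17 between the low-Xist arrays, and it was 0.097 without anti-CD25 1.

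Itgal encodes CD11a, the alpha chain of LFA-1, which is prominent on lymphocytes. It measured 7.46, 7.29 and 7.46 with rat IgG and 7.74, 7.32 and 7.34 with anti-CD25. Apart from anti-CD25 1, the anti-CD25 arrays lay within the rat IgG range. The difference of 0.062 (SE 0.12) turned to -0.075 without anti-CD25 1. It was 0.15 within the high-Xist arrays and -0.12 between the low-Xist arrays.

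The other 4 leukocyte chains were dimmer or overlapped widely. Itgb7, the partner of alpha4 and alphaE in homing to mucosa, differed by 0.14 (SE 0.11) and Itgad, which encodes CD11d, by 0.18 (SE 0.15). Leaving out anti-CD25 1 took the Itgb7 difference to 0.029. The Itgad difference was 0.0061 within the high-Xist arrays and 0.53 between the low-Xist arrays, and lay between 0.038 and 0.32 with single arrays left out. A second probe set of Itgad differed by 0.0012. Itgae, the alphaE chain of CD103, differed by -0.10 (SE 0.097) and Itgb2l, a beta2-like chain, by -0.12 (SE 0.12). Itgae was the only one of the 37 genes among the 30% dimmest of all genes, whose median difference was -0.080.

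**Figure D2:**
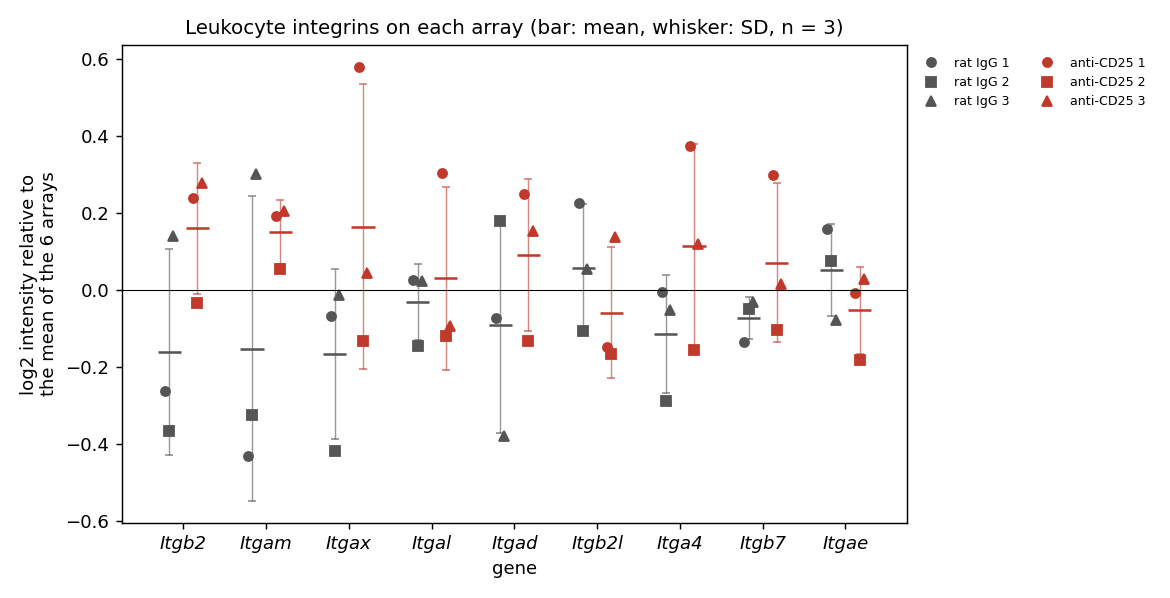
Log2 intensity of the 9 leukocyte integrins is plotted for each array relative to the gene's mean over the 6 arrays, with bars for group means and whiskers for the SD (n = 3). Itgb2 and Itgam show rat IgG 3 among the anti-CD25 arrays, and anti-CD25 1 is the highest array for 5 of the 9 genes.

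Across the 9 genes, the extremes gathered on a few arrays. Anti-CD25 1 had the highest value for 5 of the 9 genes and the lowest for 0, and rat IgG 2 the highest for 0 and the lowest for 4. The list mean, relative to the mean of the 6 arrays, was -0.062, -0.16 and -0.0031 with rat IgG and 0.23, -0.11 and 0.10 with anti-CD25. The groups overlapped because anti-CD25 2 lay below rat IgG 1 and 3. The mean difference of 0.15 was 0.17 within the high-Xist arrays and 0.10 between the low-Xist arrays. It was 0.071 without anti-CD25 1 and 0.24 without anti-CD25 2. Of the 9 genes, 5 were higher with anti-CD25 in both Xist classes, against 9 of the 37 integrin and laminin genes and 3515 of all 19752 genes.

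Markers of monocytes and macrophages and of leukocytes in general were also higher in mean. This held for all 6 of 6 such markers, Ptprc, Cd68, Csf1r, Adgre1, Lyz2 and Cd14, against 41.1% of all genes, and 0 passed the test. Dim genes lower that share, as 23.4% of the 30% dimmest were higher, and all 6 markers lay above these. The Ptprc difference was 0.17 without rat IgG 2, and Cd14 differed by -0.30 between the low-Xist arrays. Their list mean was -0.076, -0.44 and 0.0028 with rat IgG and 0.40, -0.096 and 0.22 with anti-CD25. Arrays 1 and 3 with anti-CD25 were thus highest and rat IgG 2 lowest in both lists. The summed intensity of the 6 markers ran from 8803 to 11363 with rat IgG and from 10651 to 15092 with anti-CD25. The dimmest of the 6 lay at the 55.1 percentile of mean intensity. The difference was 0.34 for the markers, against 0.15 for the leukocyte integrins. Itgb2 minus the marker mean was -0.18, 0.079 and 0.14 on the rat IgG arrays and -0.16, 0.062 and 0.061 on the anti-CD25 arrays, a difference of -0.022. The part of these markers in the leukocyte integrin values was not tested. Lymphocyte markers, 3 of 4 measured (Cd3e, Cd8a and Ncr1), were lower in mean in 3 of 3 genes, against 58.9% of all genes. Their mean difference was -0.069. They differed by -0.26, -0.25 and -0.32 within the high-Xist arrays, but by 0.42, 0.13 and 0.50 between the low-Xist arrays. Cd8a and Ncr1 were among the 30% dimmest genes, of which 76.6% were lower. Myeloid markers did not all go one way. Of the 4 granulocyte and dendritic markers, S100a8, Ly6g, Siglecf and Flt3, 1 was higher and 3 were lower. Their mean difference was -0.061. Some of these are dim, down to the 12.1 percentile of mean intensity.

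**Figure D3:**
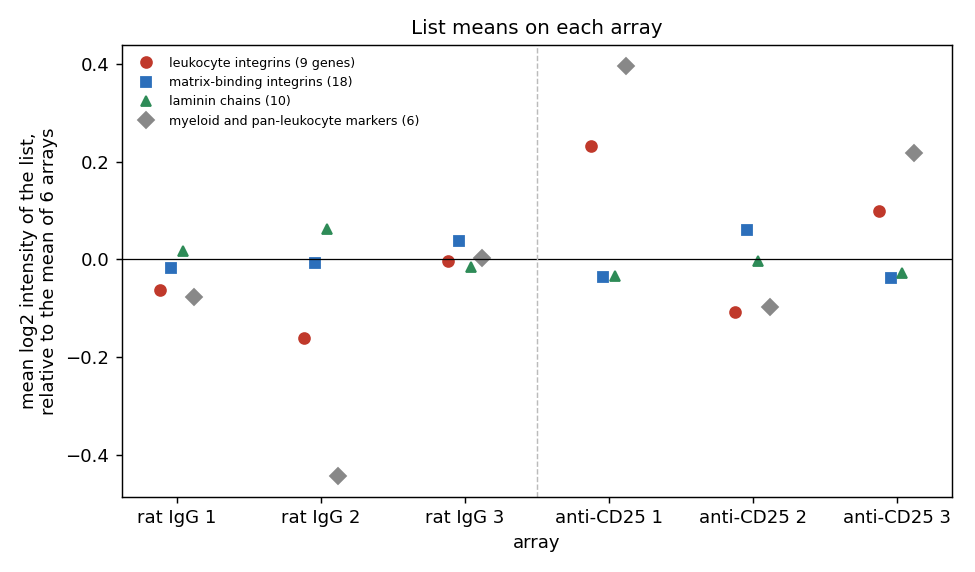
The mean log2 intensity of 4 gene lists is plotted for each array, relative to the mean of the 6 arrays: 9 leukocyte integrins, 18 matrix-binding integrins, 10 laminin chains and 6 myeloid and pan-leukocyte markers. Leukocyte integrins run from -0.16 to 0.23 and myeloid markers from -0.44 to 0.40, while matrix-binding integrins and laminin chains stay between -0.038 and 0.062.

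The matrix-binding integrins varied less and in both directions. Of the 18 genes, 8 were higher and 10 lower in mean with anti-CD25, with a median difference of -0.0091. Their list mean was -0.018, -0.0066 and 0.038 with rat IgG and -0.035, 0.060 and -0.038 with anti-CD25, which overlap. The mean difference of -0.0088 changed sign to 0.025 within the high-Xist arrays and was -0.076 between the low-Xist arrays. Set against it on each array, the leukocyte list stood at -0.043, -0.15 and -0.041 with rat IgG and at 0.27, -0.17 and 0.14 with anti-CD25. That contrast, 0.16 between the groups, was 0.065 without anti-CD25 1 and 0.28 without anti-CD25 2.

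Among laminin receptors, Itga7 and Itga6 differed in opposite directions. Itga7 encodes the alpha7 chain, the main laminin-binding integrin of muscle fibres. It measured 9.9995, 9.87 and 10.003 with rat IgG and 9.86, 9.80 and 9.78 with anti-CD25. Every anti-CD25 array lay below every rat IgG array, by as little as 0.014 log2 units between the nearest ones. The difference was -0.15 (SE 0.080), or 0.904-fold, with limma adjusted p = 0.7496 and unadjusted p = 0.103, and it was -0.11 within the high-Xist arrays and -0.23 between the low-Xist arrays.

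Itga6 encodes the alpha6 chain, which binds laminin on endothelium, epithelium, Schwann cells and muscle precursors. It measured 9.63, 9.42 and 9.64 with rat IgG and 9.73, 9.82 and 9.78 with anti-CD25. Every anti-CD25 array lay above every rat IgG array. The difference was 0.21 (SE 0.088), or 1.16-fold, with limma adjusted p = 0.7496 and unadjusted p = 0.0404. It was 0.25 within the high-Xist arrays, 0.14 between the low-Xist arrays and 0.14 without rat IgG 2. In the exact two-sided permutation of the arrays, p was 0.1 for Itga6 and for Itga7, the smallest that 3 against 3 can give. Any gene whose groups do not overlap has this p, as had Itgav, Itga11, Itgb6 and Lamb2. On each array, Itga6 minus Itga7, each relative to its own mean, was -0.15, -0.23 and -0.15 with rat IgG and 0.093, 0.23 and 0.21 with anti-CD25. This pair was singled out after its values were seen, so its separation is a description. The endothelial markers Pecam1 and Cdh5 differed by 0.022 and 0.00047, and the part of any cell type in the Itga6 values was not tested.

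Itga3, the other alpha chain that binds laminin through beta1, differed by -0.010 (SE 0.085). Itgb4, the beta chain that pairs with alpha6 in epithelia, differed by -0.062 (SE 0.083). Itgb1, the common beta chain of most matrix receptors, measured 11.15, 11.01 and 11.28 with rat IgG and 11.17, 11.22 and 11.27 with anti-CD25. All 3 anti-CD25 arrays lay within the rat IgG range, and the difference was 0.075 (SE 0.092). Leaving out rat IgG 2 took it to 0.0066 and leaving out rat IgG 3 to 0.14, and low-Xist arrays gave -0.0035.

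Itga5, the alpha chain of the fibronectin receptor, had the widest spread of the matrix-binding genes among the rat IgG arrays. It measured 9.67, 9.89 and 10.41 with rat IgG and 10.14, 10.23 and 10.19 with anti-CD25. Rat IgG 3 was the highest of the 6 arrays and rat IgG 1 the lowest, while the anti-CD25 arrays lay close together. The difference of 0.20 (SE 0.16) was 0.40 within the high-Xist arrays, -0.22 between the low-Xist arrays, 0.40 without rat IgG 3 and 0.038 without rat IgG 1. Itgav, the alpha chain of vitronectin receptors and of integrins that release latent TGF-beta, separated the groups with a small difference of 0.087 (SE 0.079). Its beta partners Itgb3, Itgb5 and Itgb8 differed by -0.058, 0.10 and -0.063.

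Itgb6, a further partner of alphav known mainly from epithelia, measured 10.09, 10.01 and 10.26 with rat IgG and 9.72, 9.98 and 9.98 with anti-CD25. The groups did not overlap, though rat IgG 2 lay within 0.033 log2 units of the highest anti-CD25 array. The difference was -0.23 (SE 0.11), -0.20 within the high-Xist arrays and -0.28 between the low-Xist arrays, and -0.14 without anti-CD25 1.

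Collagen receptors were led by Itga11, the alpha chain of a collagen receptor of fibroblasts. It measured 8.25, 8.16 and 8.11 with rat IgG and 8.10, 8.001 and 7.66 with anti-CD25. The groups did not overlap, and anti-CD25 3 lay apart from the other 5 arrays. The difference was -0.26 (SE 0.12; limma adjusted p = 0.7496, unadjusted p = 0.0592), and it was -0.13 without anti-CD25 3. It was -0.16 within the high-Xist arrays and -0.45 between the low-Xist arrays. The fibroblast genes Col1a1 and Pdgfra differed by -0.040 and 0.025, and their part in the Itga11 values was not tested. The other collagen-binding alpha chains, Itga1, Itga2 and Itga10, differed by -0.0080, -0.069 and 0.045. Of the chains not yet named, Itga8 differed by 0.12, Itga9 by 0.0075 and the platelet chain Itga2b by -0.10.

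**Figure D4:**
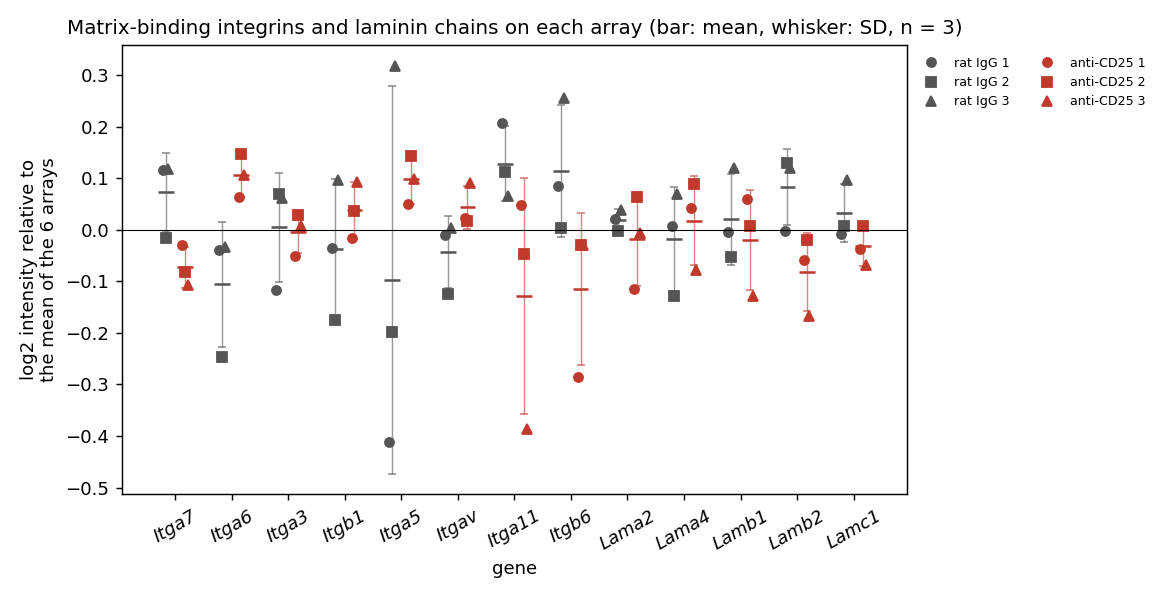
Log2 intensity of 8 matrix-binding integrins and 5 laminin chains is plotted for each array relative to the gene's mean over the 6 arrays, with bars for group means and whiskers for the SD (n = 3). Itga7, Itgb6, Itga11 and Lamb2 lie lower and Itga6 and Itgav higher on every anti-CD25 array, and rat IgG 3 is the highest array for Itga5.

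The laminin chains showed small differences. Of 10 genes, 4 were higher and 6 lower in mean with anti-CD25, where 58.9% of all genes were lower, and their median difference was -0.039. The list mean was 0.017, 0.062 and -0.015 with rat IgG and -0.033, -0.0031 and -0.027 with anti-CD25. The groups overlapped because rat IgG 3 lay below anti-CD25 2.

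Lamb2, the beta2 chain that is concentrated at neuromuscular junctions, was the single laminin gene whose groups did not overlap. It measured 10.07, 10.20 and 10.19 with rat IgG and 10.01, 10.05 and 9.91 with anti-CD25. The difference was -0.16 (SE 0.084), or 0.892-fold, with limma adjusted p = 0.7496 and unadjusted p = 0.0814, and it was -0.10 within the high-Xist arrays and -0.29 between the low-Xist arrays. Lamb1, the beta chain it can replace in the trimer, measured 9.64, 9.60 and 9.77 with rat IgG and 9.71, 9.66 and 9.52 with anti-CD25. The highest and lowest Lamb1 values were both on low-Xist arrays, and the difference was -0.040 (SE 0.089). It was 0.063 within the high-Xist arrays and -0.25 between the low-Xist arrays.

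Lama2, the alpha2 chain whose loss causes a muscular dystrophy, measured 10.52, 10.50 and 10.54 with rat IgG and 10.39, 10.57 and 10.50 with anti-CD25. Its rat IgG values lay within 0.042 log2 units of each other and inside the anti-CD25 range. The difference was -0.038 (SE 0.081; 95% interval -0.22 to 0.15). Lamc1, the gamma chain of most laminins, measured 10.87, 10.88 and 10.97 with rat IgG and 10.84, 10.88 and 10.81 with anti-CD25, a difference of -0.064 (SE 0.077). The Lamc1 groups overlapped through anti-CD25 2.

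Lama4 and Lama5 are the alpha chains of vessel basement membranes. Lama4 measured 9.86, 9.72 and 9.92 with rat IgG and 9.89, 9.94 and 9.77 with anti-CD25, and differed by 0.036 (SE 0.089). Its difference was 0.13 within the high-Xist arrays and -0.15 between the low-Xist arrays. Lama5 measured 8.10, 8.26 and 8.27 with rat IgG and 8.23, 8.23 and 8.22 with anti-CD25, and differed by 0.016 (SE 0.082). The groups overlapped for both chains. The chains best known from epithelia and embryos, Lama1, Lama3, Lamb3 and Lamc3, differed by -0.12, 0.031, 0.0010 and -0.081. Within the high-Xist arrays Lama1, Lamb3 and Lamc3 differed by -0.24, -0.19 and -0.26. Between the low-Xist arrays they differed by 0.13, 0.38 and 0.28. Lama1, Lamb3 and Lamc3 lay at the 33.5, 38.1 and 51.0 percentiles of mean intensity. The 30% dimmest genes, which hold none of them, split in the same directions, with mean differences of -0.16 and 0.072.

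The partners of these chains showed no gene past the test either. Of 23 measured genes for adaptors that link integrins to actin, 11 were higher and 12 lower in mean with anti-CD25, and 0 passed. The largest differences were 0.18 for Fermt3, the kindlin of blood cells, 0.18 for the kinase Ptk2b and 0.13 for the filamin Flna. Fermt3 measured 7.90, 7.96 and 8.14 with rat IgG and 8.30, 7.97 and 8.26 with anti-CD25, again with anti-CD25 1 highest. Fermt2, the kindlin of muscle and matrix adhesions, differed by 0.016 and talin, Tln1, by -0.015. Ptk2 is not analysed here.

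Basement membrane partners and members of the dystrophin complex were lower in mean with anti-CD25 in 13 of 14 genes, and 0 passed the test. None of the 14 was among the 30% dimmest genes, of which 76.6% were lower, against 58.9% of all genes. The median difference of the 14 was -0.056, against -0.026 over all genes. The sign was the same in both Xist classes for only 7 of the 14 (50%), against 43.0% of all genes. Their mean difference was -0.063 within the high-Xist arrays and -0.092 between the low-Xist arrays. The largest were -0.18 for Sgca, the alpha-sarcoglycan, -0.15 for Hspg2, the proteoglycan perlecan, and -0.13 for Bcam, a receptor for the laminin alpha5 chain. The list mean was -0.020, 0.093 and 0.037 with rat IgG and -0.060, 0.0055 and -0.055 with anti-CD25, so rat IgG 1 lay among the anti-CD25 arrays. Markers of muscle fibres were lower in mean with anti-CD25 in 8 of 10 genes, and 0 passed the test. Centred on the mean of all arrays, their list mean was 0.0036, 0.037 and 0.0088 on the rat IgG arrays and 0.0095, -0.0092 and -0.050 on the anti-CD25 arrays, a mean difference of -0.033, and their part in the result was not tested.

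Of 16 measured ligands and counter-receptors, 6 were higher and 10 lower in mean, and 0 passed. The matricellular protein Thbs1, a ligand of several integrins, differed by 0.46 (SE 0.24), with 10.87, 10.96 and 11.91 on the rat IgG arrays and 11.54, 11.72 and 11.86 on the anti-CD25 arrays. As for Itgam and Itga5, rat IgG 3 was the highest array. Leaving out rat IgG 3 raised the Thbs1 difference to 0.79, and leaving out rat IgG 1 lowered it to 0.27. High-Xist arrays gave 0.71 and low-Xist arrays -0.058. Npnt, the nephronectin ligand of alpha8 beta1, differed by -0.27 (SE 0.11; unadjusted p = 0.0299) and Icam4 by -0.31 (SE 0.12; unadjusted p = 0.0311), with limma adjusted p = 0.7496 for each. An unadjusted p under 0.05 (limma) was reached by 2 of the 16 genes (12.5%), against 6.28% of all genes. The Npnt difference was -0.16 without rat IgG 1, and the Icam4 difference was -0.47 within the high-Xist arrays and 0.0100 between the low-Xist arrays. The Icam4 groups overlapped, and Icam4 lay at the 30.9 percentile of mean intensity. The 30% dimmest genes had mean differences of -0.16 and 0.072 in these classes. Icam1, an endothelial ligand of the CD18 integrins, differed by 0.069, and Vcam1, a ligand of alpha4, by 0.16. Spp1 is not analysed here.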

How the data were processed

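RNA from mdx muscle was measured on 6 Affymetrix arrays, 3 per treatment. The authors deposited 1 linear intensity for each of 24922 probe sets per array, made with RMA in Affymetrix Power Tools per the submitters' processing notes. RMA corrects background, equalises array distributions and draws dim values together, which understates their differences. No version is given in the sources used here. Log2 was taken without a pseudocount. Of the rows, 21425 carried 1 gene symbol in the platform annotation, 1399 several and 2098 were not listed there. Rows with several symbols were not used, among them 3 that join Itgam to Rpl35. The brightest probe set stood for each of 19752 genes. Each gene was fitted with limma 3.58.1 (R 4.3.3; lmFit and eBayes, two-sided, group as the only term) with Benjamini-Hochberg adjustment over all genes and a threshold of 0.05. The fit was tested on simulated data. List means and marker sums are descriptions without a test. The genes, lists and alternatives were chosen with earlier results of these data known. By rule, values on every array are given for integrin and laminin genes with an unadjusted p under 0.05 or a difference of at least 0.25, and for a fixed set of main chains. The array values of Itgb6, Fermt3 and Thbs1, and the partner Vcam1, were added after their values were seen. The partner lists name genes with an unadjusted p under 0.05, the 3 largest differences and a few fixed genes. Alternatives were to repeat the quantile normalization, to centre medians, to add a variance trend, array weights, a filter on dim genes, the mean of probe sets, a replicate block, Xist class and leaving out each array.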

Additional observations from a re-analysis of the deposited data

How the results depend on the processing

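The count of 0 called integrin and laminin genes held under all 15 alternatives run with the adjusted threshold. At an unadjusted p under 0.05 it was 1, and over all genes 1240. Over all genes the adjusted count was 0 in each alternative except without rat IgG 3, where it was 7, none of them an integrin or laminin gene, so leaving out single arrays gave 0 to 7. The numbers in the titles were not taken to pair the samples. Deviations of same-numbered arrays correlated at 0.030, -0.0067 and -0.17, which cannot show that there is no pairing. Array 3 was the low-Xist array in both groups. With the number as a replicate block, the adjusted count was 0 over all genes and 0 among these genes, and 1105 genes had an unadjusted p under 0.05.

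With single arrays left out, the mean difference ran from 0.071 to 0.24 for leukocyte integrins, from -0.041 to 0.0081 for matrix-binding integrins, from -0.060 to -0.022 for laminin chains and from 0.065 to 0.28 for leukocyte minus matrix-binding integrins. The matrix-binding mean was also above 0 with array weights, at 0.0015, and within the high-Xist arrays, at 0.025. Of the 37 genes, 22 kept their sign under the alternatives run and 15 did not. These alternatives do not include the low-Xist arrays alone. Of the 22 genes, Itgam differed there by -0.096, Itga5 by -0.22, Itga8 by -0.092, Itgb5 by -0.045 and Itga2b by 0.088. Itgae differed by 0.11, Itgb2l by 0.082, Lama1 by 0.13 and Itgb1 by -0.0035. Of the 15, Itgal differed there by -0.12, Itga9 by -0.090, Itgb8 by 0.066, Lama4 by -0.15, Lama5 by -0.047 and Lamc3 by 0.28. Each of these was opposite in sign to its difference over all arrays. The sign was the same in both Xist classes for 18 of the 37 genes (48.6%), against 43.0% of all genes. Signs turned to -0.017 for Itga9 and -0.019 for Fermt2 after a second quantile normalization. With array weights they turned to 0.0077 for Itga1, 0.0086 for Itga3, -0.069 for Lamb3 and 0.025 for Tln1. Within the high-Xist arrays they turned to 0.039 for Itga1, 0.012 for Itga3, 0.063 for Lamb1, -0.19 for Lamb3 and 0.049 for Tln1. With single arrays left out, ranges that crossed 0 were -0.030 to 0.033 for Itga1, -0.25 to 0.030 for Itga2, -0.071 to 0.022 for Itga3, -0.059 to 0.054 for Itga9, -0.039 to 0.16 for Itga10 and -0.075 to 0.14 for Itgal. They were -0.14 to 0.018 for Itgb3, -0.16 to 0.086 for Itgb8, -0.079 to 0.0098 for Lama2, -0.025 to 0.069 for Lama3, -0.020 to 0.084 for Lama4 and -0.039 to 0.046 for Lama5. For Lamb1 they were -0.080 to 0.013, for Lamb3 -0.14 to 0.12, for Lamc3 -0.21 to 0.038, for Fermt2 -0.036 to 0.059 and for Tln1 -0.062 to 0.066. The cause was not tested, and Xist class cannot be told apart from the split in the lower quartile of intensity given above. A test of treatment by Xist class called 0 of the 37 genes (limma, smallest adjusted p = 0.110), with 5 at an unadjusted p under 0.05, against 8 and 3841 of all genes. The low-Xist class holds 1 array per treatment, assumed to vary like the high-Xist arrays, so this count of 0 does not show that the classes respond alike.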
